A study of Schizosaccharomyces pombe with 17 samples.

Results

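The comparison described here adds the allele rrp6-cat to a dis3-4 background in fission yeast, Schizosaccharomyces pombe, at 23 °C. It was formed from the 2 polyA libraries of strain JLP1863, labelled rrp6-cat dis3-4, and the 2 polyA libraries of strain JT449, labelled dis3-4, both at a growth temperature of 23 °C. These 4 are among 17 samples of the series, 14 of them polyA libraries. Both strains carry dis3-4, which the labels describe as temperature-sensitive, so 23 °C is the lower of the temperatures at which they were sampled, the other being after 1 h at 30 °C. The labels differ in rrp6-cat and in the strain, and they do not spell out what the suffix stands for or whether the strains share a parent. Cells grew to mid-log phase in rich liquid YES medium. For comparison, rrp6-cat (strain JLP1708), wild type (strain CHP1365) and the deletion rrp6Δ (strain JLP1704) were grown at 32 °C, also with 2 libraries each. The labels' growth protocol gives both dis3-4 strains 1 h at 30 °C ahead of harvest without setting the 23 °C samples apart. The temperature label was followed, so the treatment of the 23 °C samples is not certain. The labels do not state whether replicates are separate cultures. The p-values therefore measure the spread between these samples only, which may be technical.

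Rrp6 and Dis3 are the 3′-to-5′ exonucleases of the nuclear RNA exosome, a ring-shaped complex that trims and destroys RNA. In the nucleus it trims the 3′ ends of small nucleolar RNAs (snoRNAs) and ribosomal RNA precursors and removes short-lived noncoding transcripts. In vegetative fission yeast it also removes meiotic mRNAs that the RNA-binding protein Mmi1 marks, and it takes part in keeping low the noncoding RNAs that lie upstream of phosphate-responsive genes.

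The measurement was FPKM, fragments scaled to transcript length and library size, for 7027 annotated features. Tests were run on the 6083 whose FPKM averaged 1 or more across the 14 polyA libraries, and differences were taken on the log2(FPKM + 1) scale, which understates the change of low features. The FPKM of the 4 libraries summed to between 694588 and 787664. The total number of reads is not known. The smallest steps between low values put their relative depth at 0.256 to 0.415 of the deepest polyA library, with dis3-4 replicate 2 the lowest of the 4. Across features the dis3-4 replicates correlated at 0.935 and the rrp6-cat dis3-4 replicates at 0.941, and libraries of different groups at 0.889 to 0.913. Growth-phase markers fitted the label of vegetative growth, since tubulin, actin and other housekeeping genes had a median of 345 to 415 FPKM and genes of middle meiosis and sporulation a median of 9.95 to 16.1 FPKM in these libraries. The gene rrp6 (SPAC1F3.01) stood at 80.1 and 50.2 FPKM in dis3-4 and at 92.8 and 110 FPKM in rrp6-cat dis3-4, and dis3 (SPBC26H8.10) at 101 and 75.9 against 81.9 and 79.2 FPKM. Neither passed the test (adjusted p = 0.50 and 0.93), and since both labels name alleles and not deletions, these levels check nothing.

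At 23 °C, 60 features differed between the strains, 44 higher and 16 lower in rrp6-cat dis3-4 (limma's moderated test over all 6083 features with Benjamini-Hochberg adjustment, called at an adjusted p under 0.05). That is 0.986% of the features tested, 0.723% higher and 0.263% lower, and 766 features had an unadjusted p under 0.05. The 4 largest falls were in SPAC977.05c, SPCC13B11.02c, adh4 and zrt1. The 12 largest rises were in 2 tRNAs, 2 snoRNAs, 2 U3 genes, 2 long noncoding RNAs, the neighbours shu1 and str3, SPAC750.01 and SPBC1289.14. Protein-coding genes made up 42 of the 60 and long noncoding RNAs 11, against 4577 and 1397 of the 6083 features tested. In all 60 the higher group averaged at least 5 FPKM. In each of the 60 the libraries of the groups did not overlap, which also held for 51.6% of all features tested. The median difference of all features was 0.10 on the log2 scale, 0.00 with median-ratio size factors and -0.03 with quantile normalization. The number of calls rested on how the spread was estimated. With wild type replicate 2, a shallow library, left out of the fit, more rises and falls were called, and these held all 60. That fit also drops the whole spread within wild type. Leaving out wild type replicate 1 instead was not run for this comparison, so the change cannot be tied to replicate 2. With 1 library of the compared groups left out, fewer were called. The calls were 17 rises and 3 falls without dis3-4 replicate 1, 10 and 6 without dis3-4 replicate 2, 5 and 5 without rrp6-cat dis3-4 replicate 1, and 8 and 3 without rrp6-cat dis3-4 replicate 2. The sign of all 60 held in each of those fits, which was fixed in advance because their groups do not overlap. The call held in every one of them for SPAC977.05c, adh4, zrt1, SPAC750.01 and shu1. For the other 55 the call was lost without at least 1 library.

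**Figure D1:**
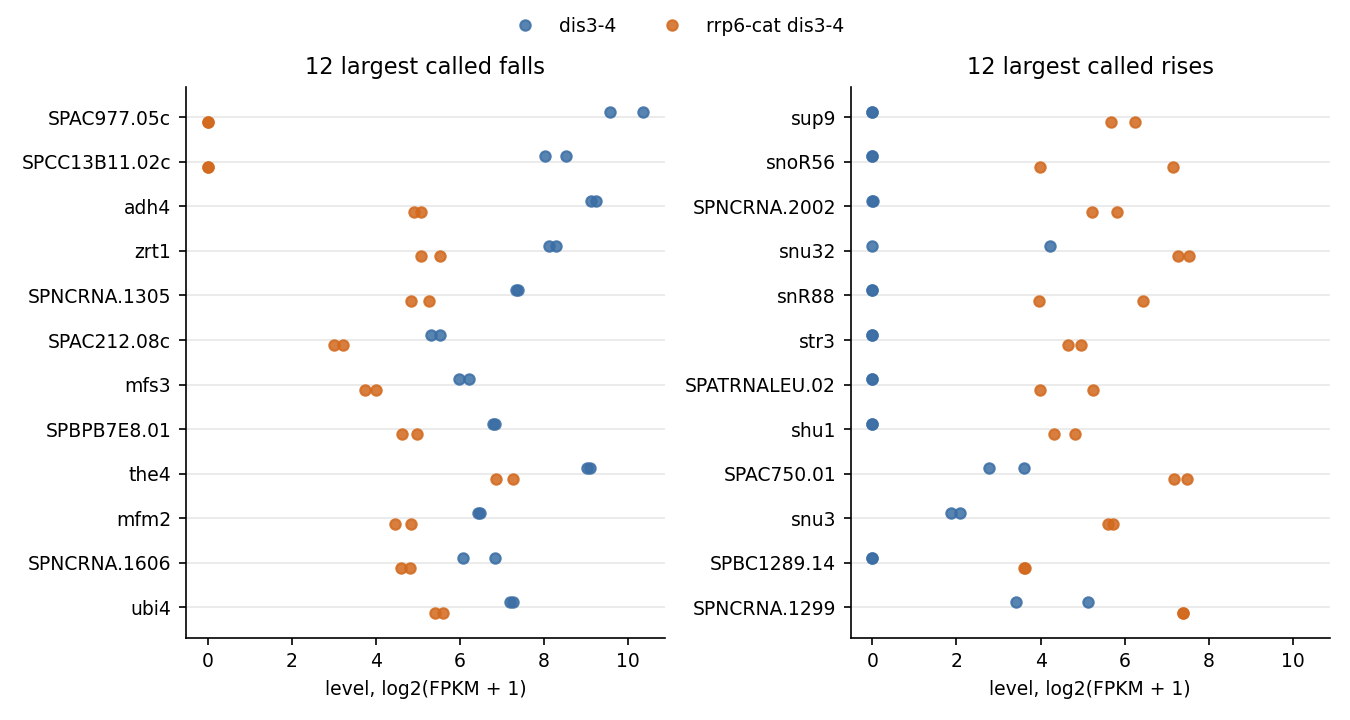
Levels of the 12 largest called falls (left) and 12 largest called rises (right) at 23 °C, each point 1 library, on the log2(FPKM + 1) axis; blue is dis3-4 and orange is rrp6-cat dis3-4. The features shown were picked for size among calls whose groups do not overlap, and adh4 went from 603 and 560 FPKM to 33.0 and 29.2.

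Genes of the zinc response moved in opposite directions. The alcohol dehydrogenase gene adh4 (SPAC5H10.06c, chromosome I) and the plasma membrane zinc importer gene zrt1 (SPBC16D10.06, chromosome II) are known targets of the repressor Loz1, which keeps them low when zinc is plentiful. The gene adh4 stood at 603 and 560 FPKM in dis3-4 and at 33.0 and 29.2 FPKM in rrp6-cat dis3-4, an 18.1-fold lower level (log2 difference -4.18, SE 0.36, adjusted p = 0.00025). The gene zrt1 went from 311 and 280 to 45.1 and 32.5 FPKM (-2.91, SE 0.30, adjusted p = 0.00096). The dis3-4 libraries were the high ones: wild type at 32 °C had 50.5 and 87.2 FPKM of adh4 and 27.95 and 48.5 of zrt1. These wild type levels of zrt1 overlap those of the double mutant, while those of adh4 lie between the double mutant and dis3-4. At 32 °C adh4 was also called lower in rrp6-cat than in wild type, with 20.3 and 31.4 FPKM in rrp6-cat (-1.36, SE 0.36, adjusted p = 0.047). For zrt1 rrp6-cat held 20.8 and 21.6 FPKM, which did not pass the test against wild type (-0.77, adjusted p = 0.20). The rrp6Δ libraries held 13.5 and 9.18 FPKM of adh4 and 34.7 and 36.8 FPKM of zrt1. In the other direction, zym1 (SPAC22H10.13), which encodes a metallothionein that binds zinc and other metals, rose from 22.2 and 19.7 to 133 and 181 FPKM (2.83, SE 0.45, adjusted p = 0.013). Its wild type levels of 68.1 and 61.0 FPKM lay between those of the dis3-4 and the double mutant libraries. The call on zym1 was lost without each of the 4 libraries in turn (adjusted p 0.075 to 0.19), while adh4 and zrt1 stayed called, with an adjusted p of at most 0.0081 and 0.034. The gene of the repressor itself, loz1, had 17.3 and 12.2 against 19.0 and 12.3 FPKM, and the zinc transporter gene zhf1 149 and 108 against 130 and 113 FPKM, with overlapping groups. In the zinc list of 6 genes, 1 rose and 2 fell, and the median difference was -0.40.

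The largest falls of all were in a pair of genes that were high in the dis3-4 libraries and low in every library of another genotype, where they reached at most 1.63 and 12.8 FPKM. SPAC977.05c (chromosome I), annotated as a Vel1p domain protein, stood at 1316 and 766 FPKM in dis3-4 at 23 °C and was listed at 0 in both rrp6-cat dis3-4 libraries (adjusted p = 1.2e-06). It held 516 and 854 FPKM in dis3-4 at 30 °C and at most 1.63 FPKM in the 10 libraries of other genotypes. SPBPB2B2.15 and SPBC1348.06c, of nearly identical sequence (at least 95% identity over at least 50% of the length) and picked for that after the values were seen, were listed at 0 to 2.95 FPKM, so how the counting split reads between these copies is uncertain. SPCC13B11.02c (chromosome III), an uncharacterized gene, stood at 365 and 260 FPKM in dis3-4 and at 0.0130 and 0.000451 FPKM in the double mutant libraries (-8.26 on the log2(FPKM + 1) scale, SE 1.11, adjusted p = 0.005, and 0.05 to 0.073 with 1 library left out). It lies next to adh1, the main fermentative alcohol dehydrogenase gene, which was listed at or near 0 in every library, so values at this locus may include a failed estimate. In the subtelomeric list, ftm2 (SPAC977.02) had 81.3 and 65.1 FPKM in dis3-4 against 0 and 2.95 FPKM in the double mutant, which did not pass the test (adjusted p = 0.051). Of its 9 genes 5 were tested, 0 were called and 1 was higher. Whether the strains differ at these loci in their DNA was not tested.

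The remaining 12 falls had log2 differences of -2.32 to -1.02. The gene the4 (SPBC26H8.11c, chromosome II), for an acyl-coenzyme A thioesterase, went from 520 and 549 to 153 and 116 FPKM (-1.99, SE 0.37, adjusted p = 0.032). It overlaps dis3 on the opposite strand, and whether strand was used in counting is not stated. The polyubiquitin gene ubi4 (SPBC337.08c) fell from 145 and 154 to 41.3 and 47.5 FPKM (-1.73, SE 0.25, adjusted p = 0.0081). Malate metabolism was represented by the malate and succinate importer gene mae1, which went from 434 and 304 to 133 and 120 FPKM (adjusted p = 0.013), and by mae2, whose product converts malate to pyruvate, which went from 1104 and 1106 to 578 and 513 FPKM (-1.02, SE 0.19, adjusted p = 0.032). The gene mfm2, one of the genes for the mating pheromone M-factor, fell from 88.5 and 86.1 to 20.8 and 27.8 FPKM (adjusted p = 0.043) and was the only 1 of 17 mating and meiotic entry genes called. Other falls were in mfs3, of a spermidine transporter family (62.5 and 74.1 to 15.0 and 12.5 FPKM), in SPBPB7E8.01 and the noncoding RNA SPNCRNA.1606 that overlaps it on the opposite strand, and in SPAC212.08c, a GPI-anchored protein gene with a near-identical copy (45.2 and 38.8 to 7.03 and 8.35 FPKM). With 1 library left out, the adjusted p reached 0.27 for the4, 0.11 for ubi4, 0.18 for mae1, 0.25 for mae2 and 0.35 for mfm2. It reached 0.30 for mfs3, 0.25 for SPBPB7E8.01, 0.23 for SPNCRNA.1606 and 0.27 for SPAC212.08c.

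Of 15 iron and heme uptake genes tested, 3 rose, and 2 of these were listed at 0 in dis3-4. In fission yeast these genes are known to be repressed by Fep1 when iron is plentiful. The gene shu1 (SPAC1F8.02c, chromosome I), for a cell-surface protein of heme uptake, was listed at 0 in both dis3-4 libraries and stood at 27.3 and 19.0 FPKM in rrp6-cat dis3-4 (adjusted p = 0.0004, at most 0.012 with 1 library left out). Its neighbour str3 (SPAC1F8.03c), annotated as a siderophore-iron transporter gene, was listed at 0 in both dis3-4 libraries and stood at 30.1 and 24.1 FPKM in the double mutant (adjusted p = 0.0059, and 0.054 to 0.093 with 1 library left out). Because one group is listed at 0, no fold change is given for either. The gene fio1 (SPAC1F7.08), for the copper oxidase of reductive iron uptake, rose from 1.79 and 2.22 to 16.4 and 15.9 FPKM (2.52, SE 0.51, adjusted p = 0.043, up to 0.29 with 1 library left out). The list's median difference was 0.20, and 11 of 15 were higher, with a median level of 9.65 and 8.82 FPKM in dis3-4. The ferric reductase gene frp1 had 9.65 and 7.05 against 26.9 and 33.1 FPKM without passing the test (adjusted p = 0.097). The repressor gene fep1 had 25.2 and 15.2 against 18.0 and 25.03 FPKM, with overlapping groups. Across the 14 libraries the rrp6Δ-labelled pair held the highest shu1 and str3 levels, 104 and 122 FPKM of shu1 and 107 and 69.4 FPKM of str3.

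**Figure D2:**
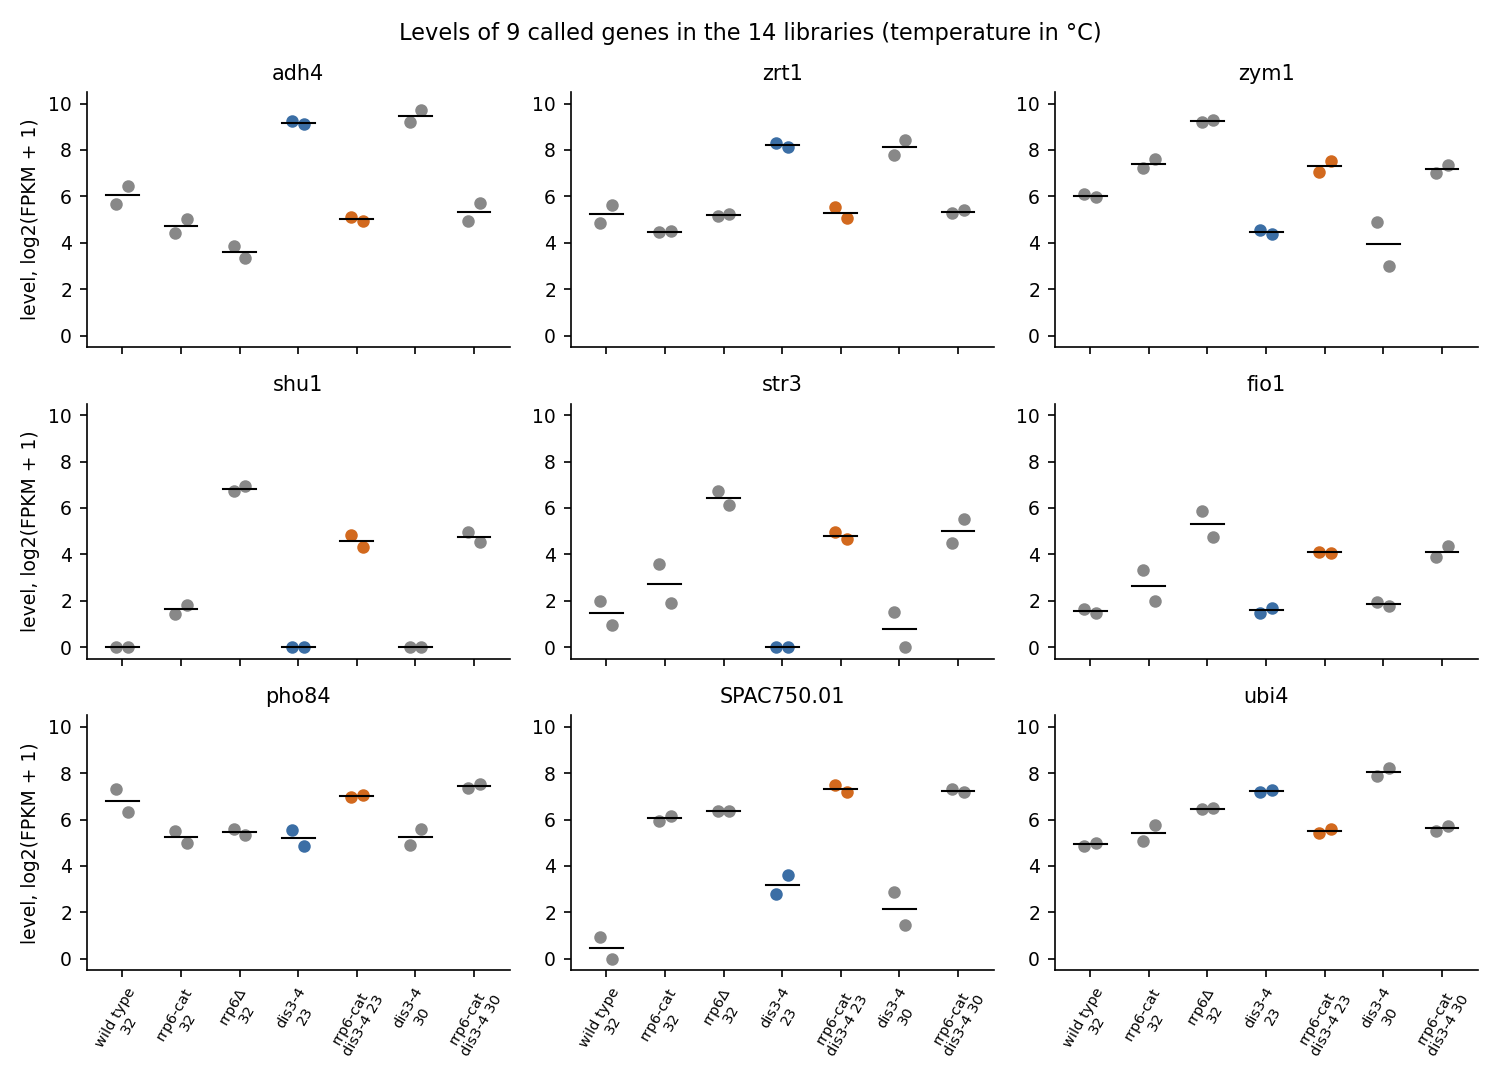
Levels of 9 called genes in all 14 polyA libraries, each point 1 library and each bar the mean of 2 on the log2(FPKM + 1) axis, with dis3-4 at 23 °C in blue, rrp6-cat dis3-4 at 23 °C in orange and the other groups in grey. For adh4 and zrt1 the dis3-4 libraries are the high ones, while for shu1 the dis3-4 and wild type libraries lie at 0.

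Phosphate and nitrogen uptake genes were also among the rises. For pho84, amt1 and vtc2, described below, the dis3-4 libraries lay below those of wild type at 32 °C. Wild type held 158 and 78.6 FPKM of pho84, 15.2 and 35.5 FPKM of amt1 and 63.8 and 52.1 FPKM of vtc2. The phosphate transporter gene pho84 (SPBC8E4.01c, chromosome II) rose from 46.1 and 28.3 to 123 and 133 FPKM (1.80, SE 0.37, adjusted p = 0.047, up to 0.37 with 1 library left out). It was the 1 called of 7 phosphate genes, the list's median difference was 0.98, and 5 of 7 were higher. Without wild type replicate 2 in the fit, 4 of the 7 were called. The glycerophosphodiester transporter gene tgp1 had 31.7 and 16.4 against 71.6 and 61.1 FPKM, the polyphosphate polymerase gene vtc4 14.6 and 13.3 against 59.98 and 40.8 FPKM, and the acid phosphatase gene pho1 80.1 and 67.5 against 162 and 133 FPKM. None of these 3 passed the test (adjusted p = 0.057, 0.057 and 0.12). Outside the list, vtc2, annotated as a polyphosphate synthetase gene, rose from 51.1 and 41.4 to 108 and 107 FPKM (1.21, SE 0.23, adjusted p = 0.032, up to 0.27 with 1 library left out). The ammonium transporter gene amt1 (SPCPB1C11.01) rose from 7.28 and 11.7 to 41.4 and 36.0 FPKM (1.95, SE 0.41, adjusted p = 0.047, up to 0.33 with 1 library left out), the only 1 of 15 nitrogen starvation genes called.

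Stress-responsive genes were higher as a list, though few passed the test singly. Of 19 core environmental stress genes tested, 19 were higher, against 3562 of all 6083 features, and the median difference was 1.01. Called were zym1, the trehalose synthase gene tps1 (138 and 144 to 326 and 295 FPKM, adjusted p = 0.043) and the sulfiredoxin gene srx1 (26.4 and 22.7 to 72.8 and 59.8 FPKM, adjusted p = 0.043), and 7 were called without wild type replicate 2 in the fit. The glutathione transferase gene gst2 had 43.3 and 75.9 against 340 and 305 FPKM (adjusted p = 0.057). With 1 library left out none of the 19 was called, while the median difference stayed between 0.82 and 1.07. Among 18 chaperone and heat shock genes ssa1, for an Hsp70, was called, rising from 129 and 98.4 to 319 and 319 FPKM (1.49, SE 0.29, adjusted p = 0.036, up to 0.28 with 1 library left out), and the list's median difference was 0.19. All 9 histone genes tested were higher, with a median of 0.76, and 0 were called. The histone levels of dis3-4 replicate 1 were the lowest of the 4 libraries, with a median of 113 FPKM against 255 in replicate 2 and 302 and 282 in the double mutant.

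Rises also lay in 4 reductase genes, gathered after the values were seen. A called reductase gene that went the other way was SPAC8E11.10, annotated as a sorbose reductase. It fell from 88.8 and 82.4 to 35.0 and 36.5 FPKM (-1.24, SE 0.25, adjusted p = 0.042). SPAC977.14c (chromosome I), of the aldo-keto reductase family, rose from 351 and 396 to 1572 and 1430 FPKM (2.00, SE 0.31, adjusted p = 0.011, up to 0.13 with 1 library left out). SPAC750.01, of the same family, rose from 5.89 and 11.1 to 177 and 144 FPKM, 17.6-fold (4.13, SE 0.46, adjusted p = 0.0017), and stayed called with any 1 library left out. SPBC215.11c rose from 15.9 and 48.6 to 226 and 188 FPKM (2.84, SE 0.55, adjusted p = 0.036), with a difference of 2.06 to 3.62 and an adjusted p of 0.04 to 0.29 when 1 library was left out. Of 6 tested features whose product name says aldo-keto or aldose reductase, a set gathered after the values were seen, 3 rose and 0 fell, and their differences ran from 0.11 to 4.13. SPAC19G12.09, an indole-3-acetaldehyde reductase gene, rose from 152 and 158 to 512 and 389 FPKM (1.52, SE 0.29, adjusted p = 0.036, up to 0.32 with 1 library left out).

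The other protein-coding rises had differences of 1.28 to 3.61. They included cgs1, for the regulatory subunit of protein kinase A (10.4 and 11.6 to 41.9 and 49.6 FPKM), the cardiolipin phospholipase gene cld1 (16.3 and 17.9 to 72.9 and 61.2 FPKM), the Golgi mannosyltransferase gene och1 (15.9 and 11.4 to 59.4 and 43.1 FPKM), the calcium permease gene sst1 (7.93 and 5.31 to 36.2 and 33.8 FPKM) and prp11, for an RNA helicase of splicing (21.9 and 22.2 to 62.4 and 51.7 FPKM). Among the 5 genes named so far the adjusted p ran from 0.0038 for cld1 to 0.048 for cgs1. With 1 library left out it reached 0.073 for cld1, 0.15 for sst1, 0.23 for och1, 0.31 for cgs1 and 0.32 for prp11. These 5 were picked after the values were seen. SPBC1289.14, annotated as adducin, was listed at 0 in both dis3-4 libraries and stood at 11.1 and 11.3 FPKM in the double mutant (adjusted p = 0.02, up to 0.17 with 1 library left out).

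Among small stable RNAs, both U3 genes rose. U3 guides the first cleavages of the ribosomal RNA precursor, and polyA selection reports only the part of such RNAs that carries a tail or is carried over. The U3 gene snu3 stood at 3.25 and 2.64 FPKM in dis3-4 and at 51.7 and 47.7 FPKM in rrp6-cat dis3-4 (3.69, SE 0.50, adjusted p = 0.0055, up to 0.081 with 1 library left out). The second U3 gene, snu32, stood at 17.8 and 0 against 152 and 185 FPKM (5.28, SE 1.09, adjusted p = 0.046, up to 0.29 with 1 library left out), and its difference was 3.17 without dis3-4 replicate 2 and 7.40 without dis3-4 replicate 1. The spliceosomal U4 gene snu4 rose from 20.7 and 18.9 to 47.2 and 54.2 FPKM (1.31, SE 0.27, adjusted p = 0.043, up to 0.30 with 1 library left out). These 3 were the called members of 7 features with small nuclear RNA identifiers, all 7 of which were higher, with a median of 1.22. By the smallest steps in the values, snu4 rested on about 2.5 and 1.4 fragments in dis3-4 and 4.7 and 4.6 in the double mutant. For snu3 these were about 0.8 and 0.4 against 10.4 and 8.1 fragments. For U1, U2, U5 and U6 the replicates of dis3-4 differed by more than for U4, as in U1 with 44.2 and 15.4 against 38.3 and 70.7 FPKM, and none passed the test.

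Of 53 snoRNAs 39 were tested, 2 rose and 0 fell, and the median difference was 0.45. The called pair, snR88 and snoR56, was listed at 0 in both dis3-4 libraries and stood at 14.5 and 86.0 FPKM and at 14.8 and 141 FPKM in the double mutant. Judged from the smallest steps in the values, snR88 rested on about 1 and 5 fragments there. With 1 library left out the adjusted p reached 0.25 for snR88 and 0.34 for snoR56. The box H/ACA snoRNA snR92 was the most abundant of those named, at 3172 and 1932 against 1098 and 1054 FPKM, and did not pass the test (adjusted p = 0.23). Of 171 nuclear tRNA genes 29 were tested and 2 were called, sup9 (0 and 0 against 50.2 and 74.5 FPKM) and SPATRNALEU.02 (0 and 0 against 37.2 and 14.7 FPKM). Both lost the call with any 1 library left out, where the adjusted p reached 0.28 and 0.27. Both rested on fewer than about 5 fragments per library and have a near-identical copy elsewhere, and a feature that passed the filter on low values through its mutant libraries had to be higher there.

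**Figure D3:**
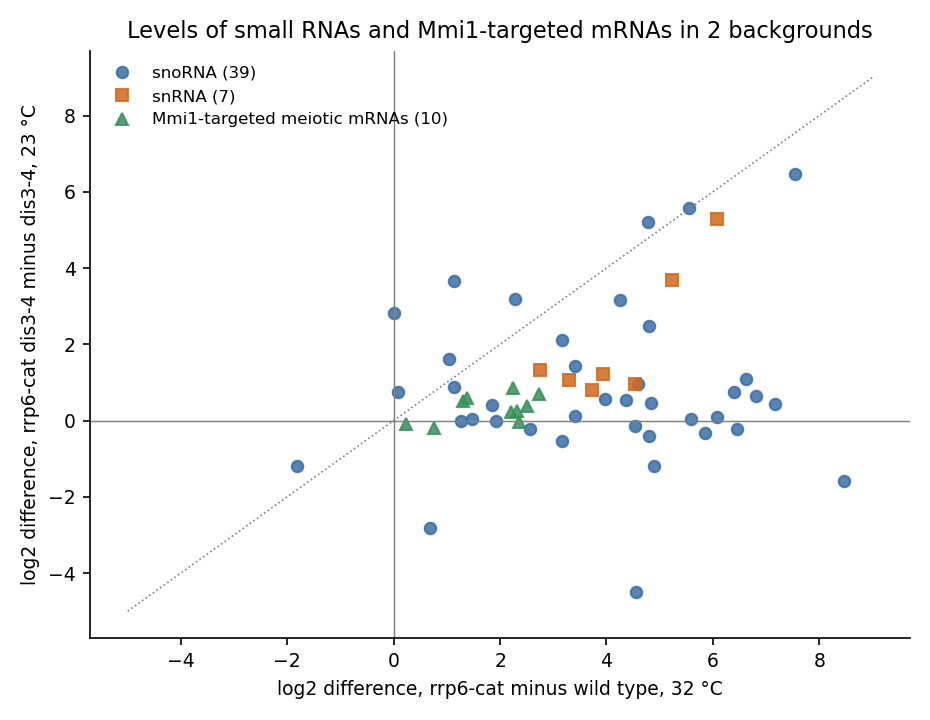
Log2 differences of 39 snoRNAs, 7 features with small nuclear RNA identifiers and 10 Mmi1-targeted meiotic mRNAs, with rrp6-cat dis3-4 minus dis3-4 at 23 °C on the vertical axis and rrp6-cat minus wild type at 32 °C on the horizontal axis, each point 1 feature; the dotted line marks equal differences. Most points lie right of 0 and below the dotted line, with snoRNA medians of 4.37 across and 0.45 up.

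Of 1397 long noncoding RNAs tested, 9 rose and 2 fell, with a median difference of 0.17, against 0.09 for the 4577 protein-coding genes. Of the 11 called, 10 overlap another gene. That share was not worked out for all 1397, so overlap is not shown to set the called ones apart. SPNCRNA.2002, which overlaps the subtelomeric helicase gene tlh1 on the opposite strand, stood at 0.00707 and 1.83e-05 FPKM in dis3-4 and at 55.1 and 36.4 FPKM in the double mutant (adjusted p = 0.0038, up to 0.073 with 1 library left out), on about 14 and 8 fragments. SPNCRNA.1299, the one that overlaps no other gene, rose from 9.74 and 33.8 to 167 and 165 FPKM (3.11, SE 0.60, adjusted p = 0.036, up to 0.27 with 1 library left out), with 3.96 without dis3-4 replicate 2 and 2.26 without dis3-4 replicate 1. SPNCRNA.1617, opposite SPBC887.16, rose from 33.2 and 19.6 to 174 and 220 FPKM (2.89, SE 0.43, adjusted p = 0.0087, up to 0.14 with 1 library left out). SPNCRNA.1305 fell from 168 and 161 to 37.6 and 27.4 FPKM (-2.32, SE 0.32, adjusted p = 0.0059, up to 0.10 with 1 library left out).

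Meiotic mRNAs that Mmi1 marks for removal were not called. Of 13 written 10 were tested, 0 passed the test and the median difference was 0.31, with medians of 23.8 and 20.5 FPKM in dis3-4 and of 29.2 and 24.3 FPKM in rrp6-cat dis3-4. The member with the strongest test, mug10, had 41.1 and 22.2 against 58.8 and 51.8 FPKM (adjusted p = 0.22). For meiotic recombination genes 0 of 8 tested were called, for middle meiosis and sporulation genes 0 of 12, and for exosome subunits and cofactors 0 of 17, with a median of 0.03. The ribosomal protein genes had a median of -0.16 with 0 of 133 called, and the 14 housekeeping genes a median of -0.30 with 0 called. The largest of the glycolytic genes by its test, the enolase gene eno101, had 4290 and 4216 against 2666 and 2581 FPKM (-0.70, adjusted p = 0.23).

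**Figure D4:**
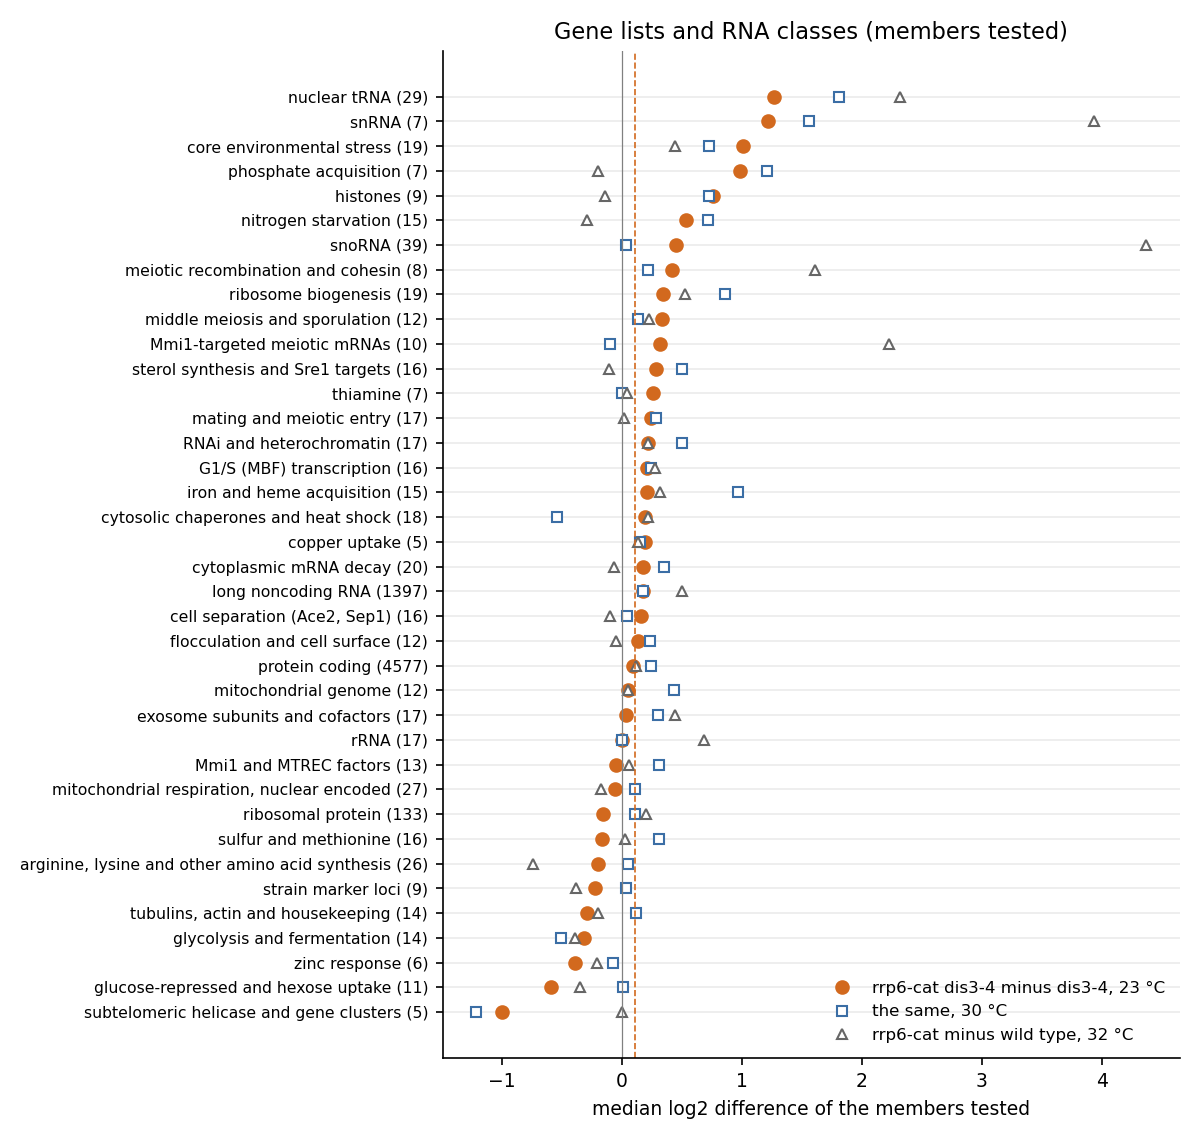
Median log2 difference of the tested members of each gene list and RNA class (member numbers in brackets), for rrp6-cat dis3-4 minus dis3-4 at 23 °C (orange circles), the same at 30 °C (blue squares) and rrp6-cat minus wild type at 32 °C (grey triangles); the dashed line is the 23 °C median of all features, 0.10. The stress list lies at 1.01 and the snoRNA and Mmi1 lists at 0.45 and 0.31 at 23 °C, against 4.37 and 2.23 for rrp6-cat against wild type.

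The same strains were sampled after 1 h at 30 °C, in libraries not shared with the 23 °C comparison. Both comparisons take their spread from the same fit of 14 libraries, so their calls are not independent. At 30 °C 92 features were higher and 20 lower in the double mutant (1.84% of those tested, 1.51% and 0.329% by direction). Of the 60 features called at 23 °C, 58 had the same sign at 30 °C and 41 were also called with that sign, while 0 were called the other way. By direction, 32 of the 44 rises and 9 of the 16 falls were called again. Not called at 30 °C were the falls of mae1, mae2, mfs3, mfm2, SPBPB7E8.01, SPNCRNA.1606 and SPAC212.08c (adjusted p 0.059 to 0.29). The falls of SPAC977.05c, SPCC13B11.02c, adh4 and zrt1 were all called again, adh4 with 594 and 854 against 29.4 and 51.5 FPKM. The rises of shu1, str3, fio1, zym1, pho84, amt1 and SPAC750.01 were called again too, shu1 with 0 and 0 against 30.4 and 22.5 FPKM. Limma's test of the difference between the effects at 23 °C and 30 °C called 0 of 6083 features, with 163 at an unadjusted p under 0.05, and for the 60 the 95% interval of that difference reached a median of 1.06 to each side. Among the 60, 9 had an unadjusted p under 0.05 in that test, smallest for SPAC513.02. It had 9.88 and 8.01 against 39.8 and 48.4 FPKM at 23 °C and 28.4 and 21.6 against 35.1 and 27.8 FPKM at 30 °C. Its effect was 1.85 larger at 23 °C (95% interval 1.04 to 2.67, adjusted p = 0.56). The genes ssa1 and mug128, also among the 9, are given as examples. The dis3-4 level of ssa1 was 129 and 98.4 FPKM at 23 °C and 316 and 240 FPKM at 30 °C. In the double mutant ssa1 stood at 319 and 319 and then at 243 and 283 FPKM. Its effect was 1.56 larger at 23 °C (95% interval 0.67 to 2.46), which did not pass the adjustment (adjusted p = 0.97). The like held for mug128, which lies opposite grc3, with 2.39 and 3.88 against 28.2 and 16.7 FPKM at 23 °C and 18.3 and 25.1 against 16.2 and 26.3 FPKM at 30 °C (2.53 larger at 23 °C, 95% interval 1.35 to 3.71, adjusted p = 0.69).

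The allele rrp6-cat on its own was compared with wild type at 32 °C, again without shared libraries but with the same estimate of spread. Background and temperature differ together there and cannot be told apart. That comparison called 297 rises and 46 falls (5.64%, with 4.88% and 0.756% by direction). Of the 60 features called at 23 °C in dis3-4, 50 had the same sign there and 20 were also called with that sign. Read the other way, the 297 features higher in rrp6-cat had a median difference of 2.40 there and of 0.38 in the dis3-4 background, where 216 of them were higher and 17 were called. SPAC750.01 rose in all 3 comparisons, with 0.906 and 0 FPKM in wild type and 59.7 and 71.3 FPKM in rrp6-cat. The U3 gene snu3 rose in all 3 too, with 2.25 and 0 against 66.8 and 67.3 FPKM at 32 °C. The 20 shared calls were 17 rises and 3 falls. Among the falls, adh4 and SPNCRNA.1305 were called lower in all 3 comparisons. SPNCRNA.1305 had 77.3 and 162 FPKM in wild type and 19.5 and 18.0 FPKM in rrp6-cat (-2.51, SE 0.32, adjusted p = 0.00071).

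Limma's test of the difference of the effects in dis3-4 at 23 °C and in wild type at 32 °C called 69 features, 1.13% of those tested, 10 with a higher and 59 with a lower value in dis3-4 (0.164% and 0.97%). Among snoRNAs 20 of 39 rose in rrp6-cat against wild type, and for 9 the difference of effects was called, each lower in dis3-4. The snoRNA medians were 159.9 and 39.9 FPKM in dis3-4 at 23 °C, 174 and 206 FPKM in the double mutant, 191 and 424 FPKM in rrp6-cat and 20.01 and 2.62 FPKM in wild type, so dis3-4 replicate 2 lay well below replicate 1. As an example, sno16 had 581 and 492 FPKM in dis3-4 at 23 °C and 174 and 182 FPKM in the double mutant. That fall did not pass limma's test (log2 difference -1.58, adjusted p = 0.16). In rrp6-cat sno16 had 220 and 567 FPKM, and it was near 0 in both wild type libraries. Among long noncoding RNAs the difference was called for 42, with 2 higher and 40 lower in dis3-4. Of 10 Mmi1-targeted mRNAs 6 rose against wild type, and for 0 the difference of effects was called. Still, 0 of the 10 had the higher effect in dis3-4, and the median difference of effects was -1.69. The median of these mRNAs was 6.08 and 3.97 FPKM in wild type, 19.8 and 21.2 FPKM in rrp6-cat and 23.8 and 20.5 FPKM in dis3-4. With opposite signs, pho84 rose in dis3-4 and fell in rrp6-cat against wild type, from 158 and 78.6 to 44.9 and 30.7 FPKM (-1.56, adjusted p = 0.031), and SPAC212.08c fell in dis3-4 and rose from 0.788 and 1.61 to 7.88 and 5.495 FPKM against wild type (1.81, adjusted p = 0.03). Wild type was the most variable group, with a mean square between its replicates of 0.663 against 0.166 to 0.334 in the others, and its replicate 2 held 0.225 of the deepest library's depth. Without wild type replicate 1 the counts were 103 higher and 445 lower, and without replicate 2 they were 25 and 78.

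**Figure D5:**
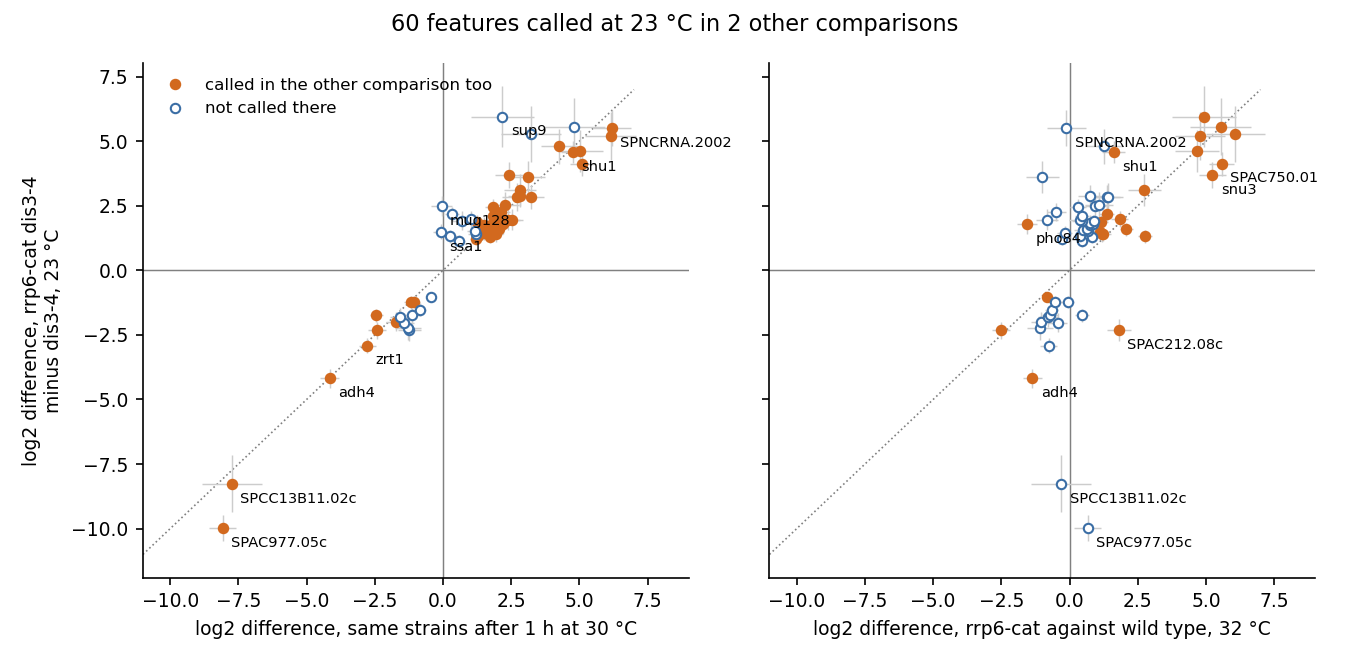
The 60 features called at 23 °C, with their log2 difference there on the vertical axes and on the horizontal axes the difference of the same strains after 1 h at 30 °C (left) and of rrp6-cat against wild type at 32 °C (right); bars are standard errors, filled points are called in the other comparison too and dotted lines mark equal differences. At 30 °C 58 of 60 share the sign, and against wild type 50 of 60.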

How the data were processed

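PolyA-selected RNA was sequenced from 14 stranded libraries, per the labels' protocols, which name a dUTP kit, and the FPKM were deposited by the authors as a table of 7027 features. Per the submitters' processing notes the tools were TopHat2 2.1.0, Bowtie2, Cufflinks 2.2.1, Cuffnorm and Cuffdiff on genome build ASM294v2. The annotation, the scaling, the read totals and any use of strand are not given in these sources. Deposited values were used unchanged. A table of Cuffdiff values and the coverage of the 3′-ligated libraries were not used here.

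Features were matched by identifier to RefSeq build ASM294v3 for names, overlaps and neighbours only (6853 of 7027 matched), and near-identical copies were found with BLAST 2.17.0. One model of 7 group means over all 14 libraries was fitted to log2(FPKM + 1) with limma 3.58.1 in R 4.3.3, with variances moderated by empirical Bayes along a trend in mean level, for 6083 features with a mean of at least 1 FPKM. It has 7 residual degrees of freedom, so groups of 2 share 1 spread. Tests were two-sided, with Benjamini-Hochberg adjustment over the 6083 and calls at an adjusted p under 0.05. The procedure was run on simulated data in which each feature had the same spread in all groups. That setting cannot test the effect of the larger spread within wild type. A value listed at 0 may be an estimate that failed. Approximate fragments come from the smallest step of low FPKM in coding genes over 1 kb and cover counting only.

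Gene lists (30, with 473 of 488 genes matched by symbol or synonym) are described by counts and medians over members tested, with no test of a list. Named were rrp6 and dis3, the 12 largest rises and falls among calls with at least 5 FPKM in the higher group and no overlap of the groups, up to 3 called members of each list or class, the member of strongest test in lists with no call, and the 5 strongest differences of effects. The members and lists were chosen with earlier results of these data known. Alternatives were other pseudocounts, filters, scalings, libraries in the fit, spread models, a replicate block and leaving out each library.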

Additional observations from a re-analysis of the deposited data

Results flagged for a closer look

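The following effects of rrp6-cat differed between dis3-4 at 23 °C and wild type at 32 °C by limma's test of the difference, adjusted over 6083 features. Temperature and background differ together, and wild type was the most variable group. Differences are on the log2(FPKM + 1) scale, effect in dis3-4 minus effect in wild type, and where 1 group lies at or near 0 they depend on the 1 that is added.

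Lower in dis3-4 by the largest amounts were SPAC977.05c, at -10.65, sno16, at -10.05, SPNCRNA.491, at -8.96, and SPCC13B11.02c, at -7.96. For sno16 and SPNCRNA.491 wild type lay near 0, with 0.000707 and 0.000409 FPKM of sno16 and 0.00251 and 0.0115 FPKM of SPNCRNA.491, while dis3-4 at 23 °C held 1184 and 802 FPKM of SPNCRNA.491 and the double mutant 1133 and 1445 FPKM. The snoRNA snR92 differed by -6.09 and SPNCRNA.1394, the primary transcript that overlaps snR3, by -4.35, with 19.7 and 10.7 FPKM in wild type and 356 and 227 FPKM in dis3-4. SPAC212.08c differed by -4.12, adh4 by -2.82, ubi4 by -2.20 and zrt1 by -2.14. Higher in dis3-4 were amt1, by 2.77, shu1, by 2.95, pho84, by 3.36, SPBC1289.14, by 4.61, and SPNCRNA.2002, by 5.63. For pho84 and SPAC212.08c the effects were called with opposite signs in the 2 backgrounds.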

How the results depend on the processing

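The named genes called at 23 °C kept their sign in every alternative run. Because their groups do not overlap, this could not come out otherwise in the runs without 1 library. Rises and falls at 23 °C, 44 and 16 as reported, came to 68 and 23 with a pseudocount of 5, 67 and 26 with size factors and 72 and 30 with quantile normalization. They came to 5 and 3 with the compared groups alone (7 of these 8 among the 60), 150 and 46 with the 4 dis3-4 groups alone, 29 and 10 with no intensity trend, 318 and 90 with array weights, and 155 and 39 without wild type replicate 2. Of the 34 named genes called, 16 were no longer called without the low-value filter, 13 with a pseudocount of 0.1, 13 with no intensity trend, 28 with the compared groups alone, 32 with the replicate block in those groups and 25 to 28 with 1 library left out. All 60 calls were among those of the array weights and of the 4 dis3-4 groups. Without 1 library of the compared groups the counts ran from 5 to 17 rises and from 3 to 6 falls, the lone library of a group being assumed to vary like the others. The difference between 23 °C and 30 °C, with 0 calls as reported, had 1 higher and 2 lower without the low-value filter and 1 lower with no intensity trend. The difference from the effect in wild type, 10 higher and 59 lower as reported, came to 23 and 88 with size factors, 28 and 68 with quantile normalization, 1 and 10 with the compared groups alone, 4 and 48 with array weights, and 12 and 26 without the low-value filter. Without 1 library it ran from 1 to 103 higher and from 14 to 445 lower. With the replicate block there were 67 rises and 23 falls in the 14-library fit, and 0 and 2 with the replicate block in the compared groups alone. The difference from wild type under the block had 0 higher and 3 lower in its groups alone. The samples share only a number, with a correlation of 0.0063 between same-numbered deviations. Leaving out wild type replicate 2 was, for the difference from wild type, among the fits without 1 library, and the 4 dis3-4 groups alone could not give it. The cause of these changes was not tested. Depth limits the called snoRNAs and tRNAs and the U4 gene snu4, which rest on fewer than about 8 fragments in each library. It also limits the U3 gene snu3 in dis3-4 and genes listed at 0.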
